A study of Mus musculus with 8 samples.

Results

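The nuclear-encoded genes of oxidative phosphorylation were examined in mouse liver. They were the rows whose gene symbol begins with Nduf, Uqcr, Cox4 to Cox8 or Atp5, or is Sdha, Sdhb, Sdhc or Sdhd, which gave 92 of the 23282 rows of the count tables. Of these, 36 are complex I subunits, 8 are complex I assembly factors (the Ndufaf genes and Atp5sl), 4 are complex II subunits, 8 belong to complex III, 19 to complex IV, which here includes Ndufa4, and 16 to complex V. The last member, Ndufa4l2, is a paralogue of Ndufa4. Liver RNA came from C57BL/6 mice aged 4 weeks and described as male. The control group received saline, the endotoxemic group received 25 mg/kg lipopolysaccharide (LPS) intraperitoneally, and the LGK974 group received 60 mg/kg of the Wnt signaling inhibitor LGK974 together with 25 mg/kg LPS. The labels of the LGK974 group name only the compound, so its doses were taken from the text of the study, whose methods place liver sampling 6 h after LPS and, in most experiments, LGK974 2 h before LPS.

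In oxidative phosphorylation, complexes I and II pass electrons from NADH and succinate to coenzyme Q, complex III passes them on to cytochrome c, and complex IV reduces oxygen. Complexes I, III and IV pump protons out of the mitochondrial matrix, and complex V, the ATP synthase, uses the return of those protons to make ATP. Hepatocytes hold many mitochondria and spend much of this ATP on gluconeogenesis, urea synthesis and protein secretion.

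Of 8 deposited libraries, 6 were distinct. Endotoxemic libraries 3 and 4 held the same counts on every row as libraries 1 and 2, so each identical pair entered once and every group had 2 libraries. Nothing in the sources used here ties a library to a single mouse, so p-values measure only the spread between these libraries. Total counts ranged from 9142116 to 15222439, and the ribosomal precursor row Rn45s held 4.8% to 9.38% of them. Sex-linked transcripts set the groups apart. Xist, which is transcribed from the inactive X chromosome of females, had 1444 and 3115 counts after saline, 1171 and 1884 after LPS, and 3 and 7 after LGK974 and LPS. The Y-linked gene Ddx3y had 1755 and 1392 counts in the LGK974 group and 0 in the other 4 distinct libraries. Every comparison with the LGK974 group below is therefore also one between libraries that differ in sex-linked transcripts, and the compound and this difference cannot be told apart. In the count tables, 579 rows stood out of the chromosomal order of their neighbours, so that their symbol may belong to another row. None of the 92 member rows was among them.

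Promoters of members that moved are shown first, since the nuclear factors that drive these genes bind near their start sites. RefSeq promoters (GRCm38.p6, 250 bases before to 50 after the gene start) were matched to 76 of the 92 members. Sdhb, the iron-sulfur subunit of complex II (chr4:140961021-140961320, plus strand), and Ndufa6, a complex I accessory subunit (chr15:82354242-82354541, minus strand), fell in the endotoxemic group and held the core of the nuclear respiratory factor 1 (NRF1) motif. Ndufa11, a membrane subunit of complex I (chr17:56717512-56717811, plus strand), held the same core on both strands, and was lower after LPS than after saline and higher after LGK974 and LPS than after LPS alone. Ndufb10, the complex I subunit with the largest fall (chr17:24724374-24724673, minus strand), held none of the motifs searched. Capitals mark matches to the motifs, and each sequence runs 5′ to 3′ on the strand of its gene.
Sdhb: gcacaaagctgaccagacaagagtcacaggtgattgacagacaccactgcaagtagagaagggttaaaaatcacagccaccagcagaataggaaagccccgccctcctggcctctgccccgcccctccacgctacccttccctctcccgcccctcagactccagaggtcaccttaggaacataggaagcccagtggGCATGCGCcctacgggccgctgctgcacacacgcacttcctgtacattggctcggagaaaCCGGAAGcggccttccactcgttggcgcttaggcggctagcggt
Ndufa6: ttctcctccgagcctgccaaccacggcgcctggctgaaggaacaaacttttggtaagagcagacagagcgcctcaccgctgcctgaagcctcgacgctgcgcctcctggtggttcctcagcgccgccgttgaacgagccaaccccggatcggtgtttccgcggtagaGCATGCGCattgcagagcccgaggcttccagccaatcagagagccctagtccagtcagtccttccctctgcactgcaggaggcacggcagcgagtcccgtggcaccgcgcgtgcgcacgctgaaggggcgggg
Ndufa11: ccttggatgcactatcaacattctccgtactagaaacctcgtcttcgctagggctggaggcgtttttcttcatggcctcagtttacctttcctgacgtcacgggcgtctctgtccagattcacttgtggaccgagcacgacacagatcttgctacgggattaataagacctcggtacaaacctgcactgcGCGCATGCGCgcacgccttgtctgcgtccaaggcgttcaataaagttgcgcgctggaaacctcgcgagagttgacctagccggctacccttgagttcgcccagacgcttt
Ndufb10: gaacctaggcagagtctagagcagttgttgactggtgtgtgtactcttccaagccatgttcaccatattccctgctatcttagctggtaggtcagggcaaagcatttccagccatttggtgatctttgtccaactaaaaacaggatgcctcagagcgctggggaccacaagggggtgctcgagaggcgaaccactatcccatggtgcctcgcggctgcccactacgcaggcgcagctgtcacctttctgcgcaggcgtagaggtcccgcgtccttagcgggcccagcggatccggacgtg

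Matches were sought on both strands for 4 motifs. The NRF1 core GCGCATGC was found in 12 of the 76 member promoters (15.8%) and in 2.8% of 27025 promoters of that length. The ETS core CCGGAAG, bound by GABP among others, was found in 16 (21.1%, against 9.12% of all promoters). The estrogen-related receptor element AAGGTCA was found in 8 (10.5%, against 4.66%), and the YY1 core AAGATGG in 11 (14.5%, against 6.48%). Of these promoters, 38 held at least 1 of the motifs and 38 held none. Overlapping matches were counted, and 7 pairs of matches overlapped. In Sdhb the NRF1 match began 54 bases before the gene start and an ETS match lay 6 bases after it, and in Ndufa6 the NRF1 match began 83 bases before the start. Among the members that were lower in the endotoxemic group, 29 had a promoter, of which 6 held the NRF1 core, 4 the ETS core, 1 the estrogen-related receptor element and 4 the YY1 core. Among the 44 tested members with a promoter that were not called, 6, 12, 7 and 7 held them. These are matches of letters and not sites shown to be bound.

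The first comparison asked how LPS changed these transcripts. Of the 92 members, 86 passed the filter on low counts. In the endotoxemic group 36 of the 86 were lower than in the control group, none was higher, and 50 did not pass the test (edgeR quasi-likelihood test, Benjamini-Hochberg adjusted p under 0.05). An unadjusted p under 0.05 was reached by 48 members (55.8%, against 51.3% of all rows tested), and DESeq2 also called 36 lower and none higher. Over all 12701 rows tested, 23% were lower, 20.4% were higher and 43.4% changed in either direction. The estimate was below 0 for 80 of the 86 members, and their median log2 fold change was -0.51, a fold of 0.703, against a median of 0.01 over all rows tested. In 74 of the 86, both endotoxemic libraries lay below both control libraries, as they did in 39.2% of all rows tested. The number of calls rested on every library. Each of the 6 libraries was left out in turn. Without any 1 endotoxemic or control library, fewer rows were called over the whole table, and the drop was steeper among the members. Without either LGK974 library, more were called in both sets. The median of the members stayed between -0.55 and -0.45. Ndufb10, Ndufa6, Ndufs7, Ndufaf3 and Atp5sl passed in each of these 6 fits.

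**Figure D1:**
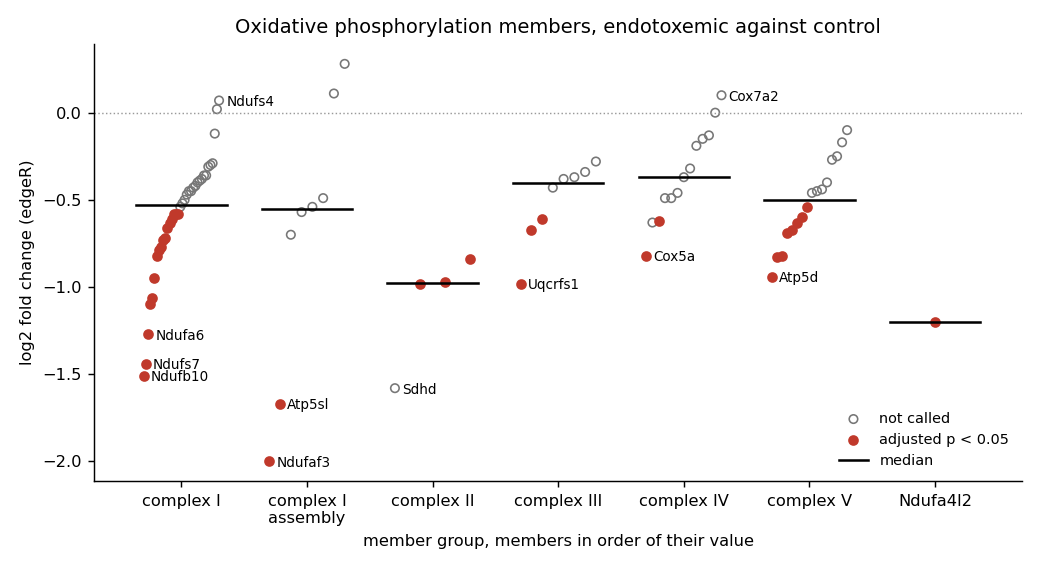
Log2 fold change (edgeR, vertical axis) of the 86 members tested, endotoxemic against control, by complex. Filled points passed an adjusted p of 0.05, open points did not, and lines are medians. All filled points lie below 0, and Ndufaf3 at -2.00 is the lowest.

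Markers of other cells and of hepatocytes moved in the same comparison. Alb, Apoa1, Ttr and Cps1, the 4 hepatocyte markers on rows in chromosomal order, all fell, by 1.00 to 1.98 on the log2 scale, and their summed level was 71500 to 103700 CPM (counts scaled to the library total after TMM normalization) after saline, 29770 to 46290 after LPS, and 31850 to 34060 after LGK974 and LPS. The 5 erythroid markers summed to 2699 to 2919 CPM after saline, 6469 to 7582 after LPS, and 2688 to 4143 after LGK974 and LPS. Retnlg and Mpo, the usable neutrophil markers, summed to 1.70 to 1.76, 13.9 to 17.7 and 10.5 to 11.5 CPM, with Mpo at 0 in the control group. After LGK974 and LPS, against LPS alone, the erythroid sum hid Alas2, which lay higher by 1.06 on the log2 scale. Hba-a1, Hbb-bs and Hbb-bt had -0.97, -1.21 and -1.20 there. The hepatocyte sum likewise hid Apoa1, higher by 0.76, beside -0.37, -0.01 and -0.30 for Alb, Ttr and Cps1. Neither Alas2 nor Apoa1 passed the test between these groups. For endotoxemic against control, the summed levels of the other lists hid members that went opposite ways. The 5 usable Kupffer cell and macrophage markers summed to 102 to 104, 131 to 145 and 91.0 to 128 CPM, and among them Marco, a scavenger receptor, rose by 3.70 on the log2 scale in the endotoxemic group (adjusted p = 1.89e-05), while Clec4f and Vsig4, both receptors of Kupffer cells, were lower, at -0.89 and -2.76 (adjusted p = 0.0124 and 0.000352). The 5 sinusoidal endothelial markers summed to 218 to 229, 396 to 400 and 428 to 548 CPM, with Lyve1 called higher at 3.03 and Clec4g and Kdr lower at -3.49 and -5.36. The 4 cholangiocyte markers summed to 13.4 to 15.3, 74.3 to 80.5 and 29.1 to 72.3 CPM. Of these, Sox9 rose by 3.12 and Krt19 was lower, with 19 and 30 counts after saline and 0 and 1 after LPS. The 5 stellate cell markers summed to 401 to 414, 529 to 579 and 452 to 544 CPM, with Dcn called higher at 0.60 and Lrat, Reln and Col1a1 lower at -2.93, -1.02 and -2.07. Markers of T or NK cells and of B cells were low in every library. In the same order of groups, the former summed to 2.692 to 2.745, 1.855 to 3.092 and 1.15 to 1.51 CPM. B cell markers summed to 1.046 to 2.97, 1.091 to 2.772 and 0.0755 to 0.135 CPM. Their part in the results was not tested, and in bulk liver fewer cells of a type and less RNA per cell cannot be told apart.

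Complex I, which oxidizes NADH, had 17 of its 36 subunits lower in the endotoxemic group (47.2%, against 23% of all rows tested), with a median log2 fold change of -0.53. Ndufb10, a membrane arm subunit, was at 154 and 156 CPM after saline, 57.1 and 51.6 after LPS, and 81.2 and 81.1 after LGK974 and LPS. The 3 groups did not overlap, and the fall in the endotoxemic group was 1.51 ± 0.18 (SE, n = 2 libraries a group) on the log2 scale, with an edgeR adjusted p of 0.000201. Ndufs7, a core subunit that carries the last iron-sulfur cluster before coenzyme Q, was at 63.5 and 74.9 CPM after saline, 23.2 and 27.9 after LPS, and 28.6 and 33.0 after LGK974 and LPS. All 4 libraries of LPS-injected mice lay below both control libraries, with a log2 fold change of -1.44 ± 0.21 and adjusted p = 0.000648 in the endotoxemic group. Ndufa6 had the highest level of complex I in the control group. It stood at 551 and 531 CPM after saline, 225 and 223 after LPS, and 198 and 223 after LGK974 and LPS, a log2 fold change of -1.27 ± 0.18 in the endotoxemic group (adjusted p = 0.000555).

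**Figure D2:**
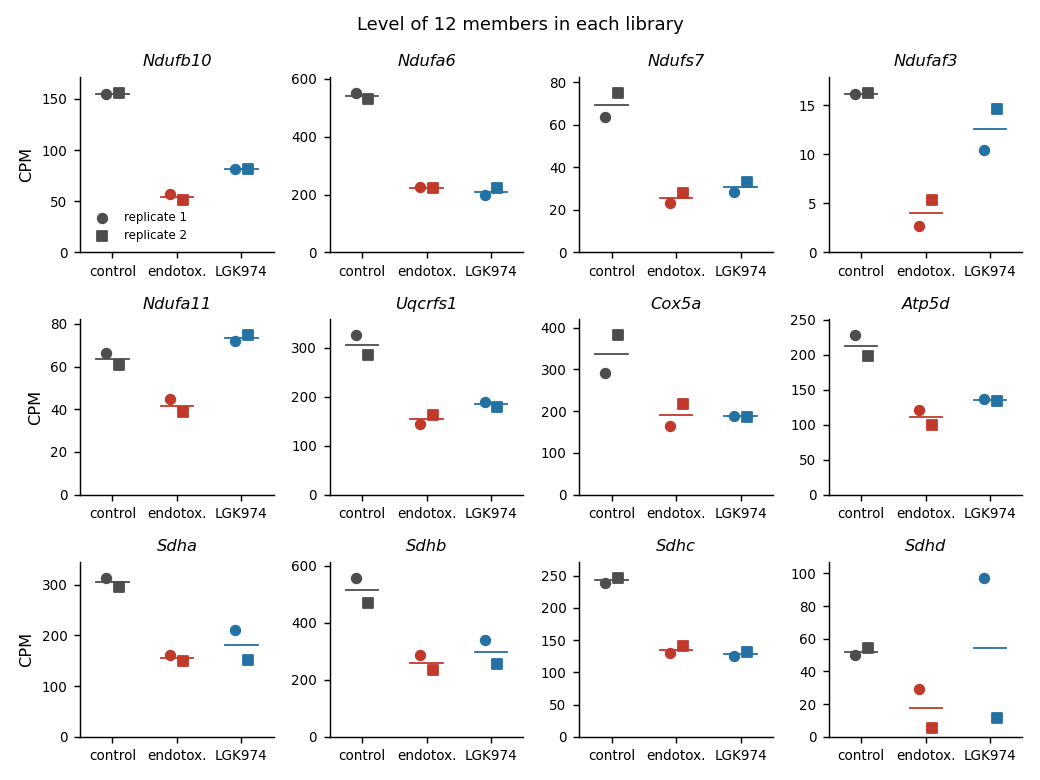
TMM-normalized level (CPM, vertical axes from 0) of 12 members in the 2 distinct libraries of each group, with the mean as a line. Most levels are lowest in the endotoxemic group. Ndufa11 and Ndufaf3 are higher in both LGK974 libraries than in both endotoxemic libraries, and the Sdhd libraries of each LPS-injected group lie far apart.

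Ndufb9, a membrane arm subunit with the highest mean of complex I over all libraries, was at 418 and 405 CPM after saline, 266 and 284 after LPS, and 304 and 290 after LGK974 and LPS, and fell by 0.58 in the endotoxemic group (adjusted p = 0.0262).

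The other core subunits of complex I gave smaller differences. Ndufs1, the large iron-sulfur subunit, was at 84.9 and 83.9 CPM after saline and 49.4 and 46.1 after LPS, and fell by 0.82 on the log2 scale (adjusted p = 0.00592). Ndufs3, a subunit of the peripheral arm, had a log2 fold change of -0.54 (adjusted p = 0.0597), and Ndufv1, the flavin subunit that takes the electrons of NADH, had -0.47 (adjusted p = 0.0553). Ndufv2 and Ndufs8, both iron-sulfur subunits, had -0.30 and -0.29 (adjusted p = 0.202 and 0.271). By module, 3 of the 10 subunits of the NADH-oxidizing N module were lower with a median of -0.42, 3 of the 5 of the coenzyme Q module were lower, and 11 of the remaining 21, most of them in the membrane arm, were lower with a median of -0.58. The N module share of 30% was near the 23% of all rows tested that were lower, and the others were 60% and 52.4%. The called members of the N module were Ndufa6, Ndufs1 and Ndufv3, an accessory subunit that fell by 1.06. Ndufs4, an N module subunit chosen after its values were seen, was at 103 and 91.8 CPM after saline and 102 and 102 after LPS, a log2 fold change of 0.07 (adjusted p = 0.809).

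Complex I assembly factors, which help to build the complex and are not part of it, had 2 of 8 lower, a share of 25% where 23% of all rows tested were lower. Ndufaf3 was low, at 16.2 and 16.3 CPM after saline, 2.73 and 5.33 after LPS, and 10.4 and 14.7 after LGK974 and LPS. Its libraries did not overlap between groups, and its log2 fold change of -2.00 ± 0.36 in the endotoxemic group (adjusted p = 0.00212) was the largest fall among the members called. Atp5sl, now named Dmac2 and a factor for building the membrane arm in spite of its symbol, was at 29.9 and 26.5 CPM after saline, 9.06 and 8.63 after LPS, and 13.5 and 10.4 after LGK974 and LPS. It fell by 1.67 ± 0.25 on the log2 scale (adjusted p = 0.000794).

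Complex II, the succinate dehydrogenase shared with the citric acid cycle, had 3 of 4 subunits lower (75%, against 23% of all rows tested) and a median of -0.98. Sdha, which binds FAD and succinate, was at 314 and 295 CPM after saline, 160 and 150 after LPS, and 210 and 151 after LGK974 and LPS, and fell by 0.97 ± 0.21 in the endotoxemic group (adjusted p = 0.0053). Sdhb was at 559 and 468 CPM, 286 and 235, and 339 and 257 in the same order, with a log2 fold change of -0.98 ± 0.22 (adjusted p = 0.0064). Sdhc, a membrane anchor, was at 239 and 247, 129 and 142, and 126 and 132 CPM, and its fall measured -0.84 ± 0.18 on the log2 scale (adjusted p = 0.00474). In all 3 genes the 4 libraries of LPS-injected mice lay below both control libraries. Sdhd, the other membrane anchor, was at 49.8 and 54.3 CPM after saline, 29.4 and 5.44 after LPS, and 97.5 and 11.5 after LGK974 and LPS. Its replicates differed 5.39-fold in the endotoxemic group and 8.46-fold in the LGK974 group, against 1.09-fold in the control group, and its log2 fold change of -1.58 ± 0.89 did not pass the test (adjusted p = 0.18). It was -3.20 without endotoxemic library 1 (adjusted p = 0.0626) and -0.82 without endotoxemic library 2 (adjusted p = 0.555). Without LGK974 library 1 or 2 it stayed at -1.58 and passed (adjusted p = 0.0105 and 0.011).

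Complex III, which passes electrons from reduced coenzyme Q to cytochrome c, had 3 of 8 subunits lower (37.5%, against 23% of all rows tested) with a median of -0.40. Uqcrfs1, the Rieske iron-sulfur protein, was at 325 and 284 CPM after saline, 145 and 163 after LPS, and 189 and 180 after LGK974 and LPS. Its log2 fold change in the endotoxemic group was -0.98 ± 0.19 (adjusted p = 0.00267). The core proteins Uqcrc1 and Uqcrc2 fell by 0.61 and 0.67 (adjusted p = 0.0385 and 0.0159). Uqcrq, a small subunit with the highest mean level of the complex, was at 803 and 890 CPM after saline and 629 and 712 after LPS, a log2 fold change of -0.34 (adjusted p = 0.17).

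Complex IV, cytochrome c oxidase, had 2 of 13 tested members lower and a median of -0.37. That share of 15.4% was below the 23% of all rows tested that were lower. Cox5a, a subunit of the matrix side, was at 292 and 381 CPM after saline, 165 and 216 after LPS, and 189 and 186 after LGK974 and LPS, a log2 fold change of -0.82 ± 0.22 in the endotoxemic group (adjusted p = 0.0139). Cox6b1, on the side of cytochrome c, fell by 0.62 (adjusted p = 0.0225). Cox4i1 and Cox6a1, the latter with the highest mean level of the complex, each had a log2 fold change of -0.49 (adjusted p = 0.0859 and 0.0715), and Cox5b had -0.19 (adjusted p = 0.423). Cox7a2, chosen after its values were seen, was at 464 and 442 CPM after saline and 516 and 457 after LPS, a log2 fold change of 0.10 (adjusted p = 0.712). Cox7a2l, a relative of Cox7a2, had -0.37 (adjusted p = 0.134).

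The tissue isoforms of complex IV were nearly silent. Cox8c had no count in any library. Cox4i2, Cox6a2, Cox6b2, Cox7b2 and Cox8b, which are forms of muscle, lung or testis, did not exceed 1.56 CPM in any library and were not tested. Cox7a1, the heart and muscle form, was at 1.31 to 4.58 CPM with a log2 fold change of -0.63 in the endotoxemic group (adjusted p = 0.443). The 6 muscle markers summed to 1.57 to 2.79 CPM after saline, 0 to 0.320 after LPS, and 0.151 to 0.744 after LGK974 and LPS, with Myh4, Myh6 and Myl1 at 0 in all libraries. Acta1, the skeletal muscle actin, had 28 and 13 counts after saline, 0 and 2 after LPS, and 2 and 11 after LGK974 and LPS, and was lower in the endotoxemic group (adjusted p = 0.0388). Ndufa4l2, a paralogue known for its induction under low oxygen, was at 10.7 and 10.4 CPM after saline, 5.46 and 3.73 after LPS, and 2.72 and 4.33 after LGK974 and LPS, and it fell by 1.20 ± 0.37 in the endotoxemic group (adjusted p = 0.0271). AA467197, the row of another gene related to Ndufa4 and outside the member rule, moved the other way. It had 0 and 3 counts after saline, 281 and 366 after LPS, and 236 and 107 after LGK974 and LPS. Its summed level was 303 times that of the control group in the endotoxemic group (95% exact interval 103 to 1470) and 106 times in the LGK974 group (36.1 to 518), intervals that cover counting error only.

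Complex V, the ATP synthase, had 8 of 16 members lower (50%, against 23% of all rows tested) and a median of -0.50. In the catalytic head, 4 of 5 subunits fell. Atp5d, the delta subunit of the central stalk, was at 228 and 198 CPM after saline, 121 and 99.9 after LPS, and 136 and 134 after LGK974 and LPS, with a log2 fold change of -0.94 ± 0.19 in the endotoxemic group (adjusted p = 0.00407). Atp5c1, the gamma subunit that turns in the head, fell by 0.83 (adjusted p = 0.00786). Atp5a1 and Atp5b, the alpha and beta subunits that form the catalytic ring, fell by 0.82 and 0.54 (adjusted p = 0.00847 and 0.0384). The c subunit of the proton-driven ring is encoded by 3 genes. Atp5g3 had the highest level of all members, at 1641 and 1642 CPM after saline, 993 and 1037 after LPS, and 1334 and 1140 after LGK974 and LPS, and fell by 0.69 ± 0.19 in the endotoxemic group (adjusted p = 0.0146). Atp5g2 fell by 0.60 (adjusted p = 0.0333), and Atp5g1 had a log2 fold change of -0.17 (adjusted p = 0.52). Of the 8 stalk and membrane members 2 were lower, with a median of -0.42, a share of 25% near the 23% over all rows. Atp5s, now named Dmac2l, was at 4.58 to 6.43 CPM with a log2 fold change of -0.25 in the endotoxemic group (adjusted p = 0.596). The libraries were made from the 3′ ends of transcripts, where counts do not grow with transcript length, so levels may be set side by side between genes on the CPM scale.

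The members together held 1.99% and 2.04% of all counts after saline, 1.41% and 1.44% after LPS, and 1.58% and 1.53% after LGK974 and LPS. The groups did not overlap in this total, and the LGK974 group lay between the other two. Complex I subunits held 0.616% after saline and 0.405% after LPS in both libraries, and 0.456% and 0.469% after LGK974 and LPS. Complex V held 0.555% and 0.566%, 0.377% and 0.398%, and 0.435% and 0.420%. Complex III, at 0.272% and 0.277%, 0.201% and 0.210%, and 0.228% and 0.225%, had the same order. In complexes II and IV the endotoxemic and LGK974 groups overlapped. Complex II held 0.113% and 0.107%, 0.0607% and 0.0545%, and 0.0753% and 0.0559%, and complex IV held 0.422% and 0.455%, 0.351% and 0.366%, and 0.377% and 0.348%. With 2 libraries against 2, an exact permutation test cannot reach a p of 0.05, and none was run on these shares.

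**Figure D3:**
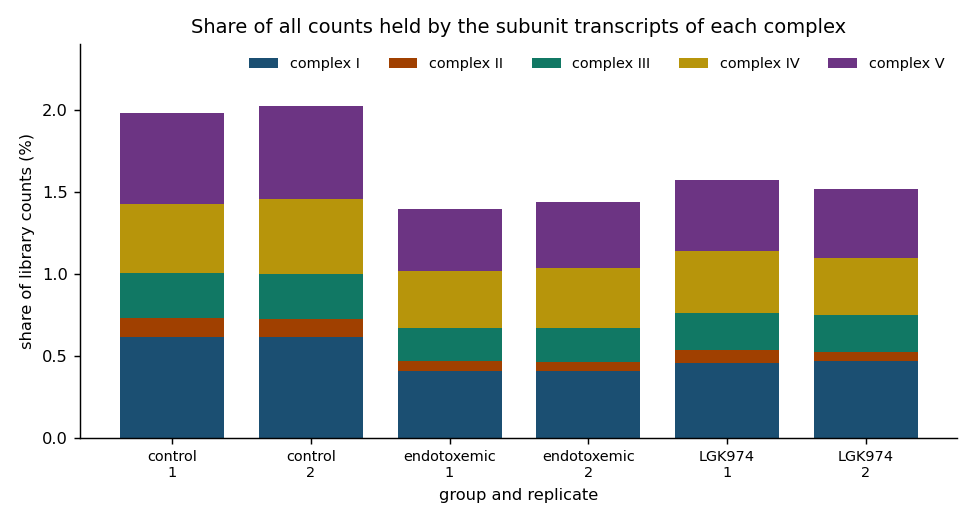
Share of all counts of a library (%, vertical axis from 0) held by the subunits of each complex, as stacked bars for the 2 distinct libraries of each group. The control bars are the tallest, the endotoxemic bars the shortest, and the LGK974 bars lie between them.

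The second comparison asked how LGK974 changed these transcripts in LPS-injected mice. Of 86 members, 2 were higher after LGK974 and LPS than after LPS alone and none was lower, where 2.8% of all rows tested were higher, 2.82% lower and 5.62% changed in either direction. An unadjusted p under 0.05 was reached by 10 members (11.6%, against 22.9% of all rows tested), and DESeq2 also called 2 higher and none lower. Ndufa11, at 66.2 and 60.7 CPM after saline, 44.7 and 38.6 after LPS, and 71.9 and 74.6 after LGK974 and LPS, was higher by 0.81 on the log2 scale (adjusted p = 0.0421). It had fallen by 0.61 in the endotoxemic group against control (adjusted p = 0.0289). Ndufaf3, with its values given above, was higher by 1.64 (adjusted p = 0.0356). The 2 calls were lost without either endotoxemic or either control library, fits in which fewer of all rows were called as well. Without either LGK974 library more were called, both among the members and over all rows.

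Most estimates lay above 0. They did so for 67 of the 86 members, with a median of 0.19 against 0.03 over all rows tested. Both LGK974 libraries lay above both endotoxemic libraries in 43 members and below them in 6, where 26.5% and 26% of all rows tested did. The medians were 0.22 for complex I subunits, 0.43 for the assembly factors, 0.20 for complex II, 0.19 for complex III, 0.05 for complex IV and 0.21 for complex V. Ndufb10 had a log2 fold change of 0.58 (adjusted p = 0.0967) with no overlap between the groups. Ndufa6, the largest fall of the N module, had -0.09 (adjusted p = 0.807), and Cox5a had -0.02 (adjusted p = 0.963). Sdhd had 1.65 (adjusted p = 0.309), with LGK974 libraries on both sides of the control libraries. Its value was -0.59 without LGK974 library 1 (adjusted p = 0.532) and 2.49 without LGK974 library 2 (adjusted p = 0.00904).

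**Figure D4:**
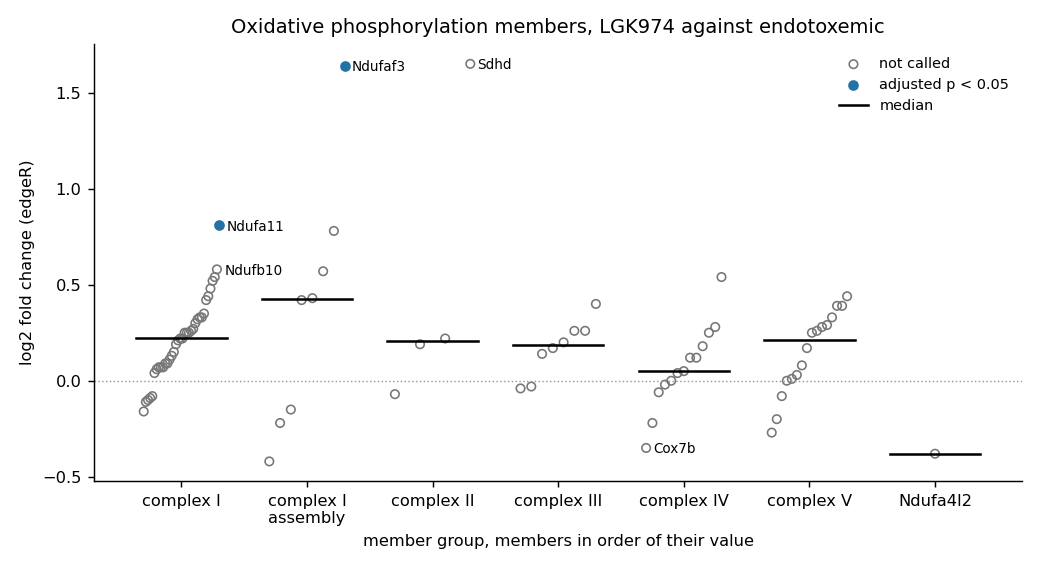
Log2 fold change (edgeR, vertical axis) of the 86 members tested, LGK974 against endotoxemic, by complex. Filled points passed an adjusted p of 0.05, open points did not, and lines are medians. Ndufaf3 and Ndufa11 are the filled points, and most open points lie above 0.

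The third comparison set the LGK974 group against the control group. It shares libraries with both comparisons above, so its values are given beside theirs and not as separate support. Of 86 members, 21 were lower and 1 was higher, where 17.7% of all rows tested were lower, 16.4% higher and 34.1% changed in either direction. An unadjusted p under 0.05 was reached by 35 members (40.7%, against 44.6% of all rows tested). The median log2 fold change was -0.36, against 0.02 over all rows tested. Both LGK974 libraries lay below both control libraries in 62 members and above them in 7, where 34.3% and 33.8% of all rows tested did. Without either control library fewer rows were called lower over the whole table, and the drop was steeper among the members. Without either LGK974 library more members were called lower. The member called higher was Ndufaf4, an assembly factor at 30.3 and 35.8 CPM after saline, 34.8 and 36.4 after LPS, and 59.5 and 45.9 after LGK974 and LPS, with a log2 fold change of 0.67 (adjusted p = 0.0367). That call was lost without any 1 of the endotoxemic or control libraries and without LGK974 library 1.

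By complex, the LGK974 group was lower than the control group in 7 of 36 complex I subunits, 2 of 8 assembly factors, 3 of 4 complex II subunits, 2 of 8 of complex III, 2 of 13 of complex IV and 4 of 16 of complex V, and in Ndufa4l2. Beside the 17.7% of all rows tested that were lower, these shares were 19.4% in complex I, 25% in the assembly factors and in complexes III and V, 75% in complex II and 15.4% in complex IV, so that of complex I was near the background and that of complex IV below it. The largest falls in complex I were those of Ndufa6, Ndufs7 and Ndufv3, at 1.36, 1.17 and 0.99 on the log2 scale (adjusted p = 0.00051, 0.00255 and 0.00663). Atp5sl and Ndufaf1, another assembly factor, fell by 1.24 and 1.12 (adjusted p = 0.00464 and 0.0139). Sdhc, Sdhb and Sdha fell by 0.91, 0.79 and 0.76, and Sdhd had a log2 fold change of 0.06 (adjusted p = 0.964). Uqcrfs1 and Uqcrc2 fell by 0.73 and 0.70, and Cox5a and Cox6b1 by 0.84 and 0.61. In complex V the largest falls were those of Atp5c1, Atp5b and Atp5j, a subunit of the outer stalk, at 0.83, 0.74 and 0.73.

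Side by side, 19 members were lower in both LPS-injected groups than in the control group and were not called between those groups, a pattern of 22.1% of the members tested and 13.7% of all rows tested. Another 15 were lower in the endotoxemic group only by these calls (17.4%, against 6.74% of all rows). A further 2 were lower in the endotoxemic group and higher after LGK974 and LPS than after LPS alone (Ndufaf3 and Ndufa11), as were 0.953% of all rows, and 2 were lower in the LGK974 group only by these calls (Ndufaf1 and Atp5j), as were 2.17%. Ndufaf4 was called only as higher in the LGK974 group against control, like 2.98% of all rows, and 47 members (54.7%) were called in none of the comparisons, against 50.5%. A call in one comparison and not in another does not show that the effects differ.

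Genes around the complexes, outside the member rule, were read in the same way. Among 5 tested electron carriers, 4 were lower in the endotoxemic group and 1 was higher, where 23% of all rows tested were lower and 20.4% higher. Cycs, which encodes the cytochrome c that joins complexes III and IV, was at 84.8 and 101 CPM after saline, 142 and 157 after LPS, and 152 and 125 after LGK974 and LPS, and rose by 0.69 in the endotoxemic group (adjusted p = 0.0212). Cyc1, the cytochrome c1 of complex III, whose symbol lies outside the rule, fell by 0.75 (adjusted p = 0.038). Etfdh, which passes electrons of fatty acid oxidation to coenzyme Q, fell by 1.56 (adjusted p = 0.00026), and Etfa and Etfb, which feed it, fell by 0.92 and 0.87. None of these 5 was called between the LGK974 and endotoxemic groups, where 2 had an unadjusted p under 0.05.

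A list of 42 further assembly factors, with the ATP synthase inhibitor Atpif1 counted among them, was read next. Of these, 12 were lower and 1 was higher in the endotoxemic group, with a median of -0.47. These shares of 28.6% and 2.38% stand beside 23% and 20.4% of all rows tested. Sco2, which delivers copper to complex IV, was at 77.7 and 85.7 CPM after saline, 19.2 and 19.3 after LPS, and 21.2 and 23.8 after LGK974 and LPS, a log2 fold change of -2.09 in the endotoxemic group (adjusted p = 5.09e-05). Uqcc3 of complex III and Timmdc1 of complex I fell by 1.62 and 1.46 (adjusted p = 0.000826 and 0.0167). Foxred1, a complex I factor, rose by 0.88 (adjusted p = 0.0348). Sdhaf4, a complex II factor, fell by 1.31 in the endotoxemic group and was the 1 factor called in the LGK974 group against the endotoxemic group, higher by 1.12 (adjusted p = 0.023).

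Among 12 tested genes of coenzyme Q synthesis, 5 were lower and 1 was higher in the endotoxemic group. The 50% called in either direction stands beside 43.4% of all rows tested. Adck3, a kinase-like protein of this pathway, was at 172 and 208 CPM after saline and 3.60 and 2.45 after LPS, a log2 fold change of -5.97 (adjusted p = 7.8e-06). Its relative Adck4 moved the other way, from 7.61 and 11.1 to 94.7 and 98.7 CPM, a rise of 3.36 (adjusted p = 2.88e-05). Coq10a fell by 2.49 and Coq9 by 1.47 (adjusted p = 0.000418 and 0.000802). Coq7, a hydroxylase of the pathway, fell by 0.63 in the endotoxemic group (adjusted p = 0.0472) and was higher by 1.08 after LGK974 and LPS than after LPS alone (adjusted p = 0.0281).

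Of 14 tested regulators of nuclear genes for mitochondria, 4 were lower and 2 were higher in the endotoxemic group. The 42.9% called was close to the 43.4% of all rows tested. The coactivators Ppargc1a and Ppargc1b fell by 2.84 and 4.11 on the log2 scale (adjusted p = 0.000153 and 1.5e-05). Ppara, a receptor for fatty acids, was at 293 and 360 CPM after saline, 12.9 and 16.0 after LPS, and 61.4 and 132 after LGK974 and LPS, with a log2 fold change of -4.50 in the endotoxemic group (adjusted p = 2.63e-05) and higher by 2.74 after LGK974 and LPS than after LPS alone (adjusted p = 0.00514). Esrrg, an orphan receptor at 1.67 and 1.96 CPM in the control group, was at 0 and 0.107 in the endotoxemic group (adjusted p = 0.0121). Pprc1, a coactivator of the Ppargc1a family, and Tfb1m, a methyltransferase of mitochondrial ribosomal RNA, rose by 2.02 and 1.09 (adjusted p = 0.00431 and 0.00997). Nrf1, Gabpa, Esrra and Yy1, each a factor of a motif among the 4 searched, had log2 fold changes of 0.74, 1.18, -0.12 and 0.22 (adjusted p = 0.121, 0.0619, 0.75 and 0.356). Esrrg, called lower above, is another estrogen-related receptor.

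**Figure D5:**
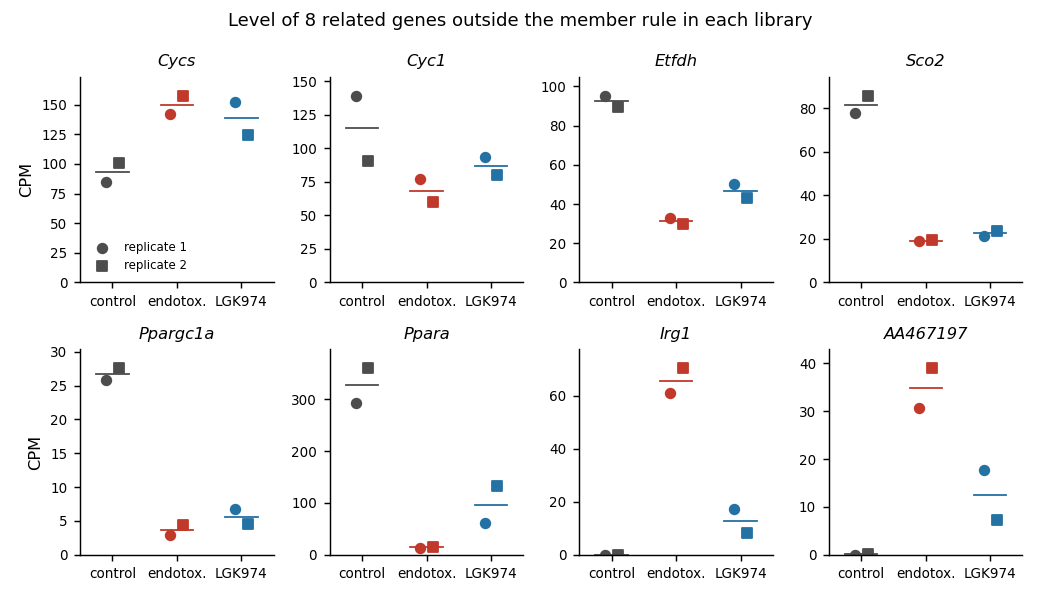
TMM-normalized level (CPM, vertical axes from 0) of 8 genes outside the member rule in the 2 distinct libraries of each group, with the mean as a line. Cycs, Irg1 and AA467197 are higher in both endotoxemic libraries than in both control libraries, and the other 5 genes are lower.

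Genes known to slow respiration or carbon entry to it were also read, together with Sod2, the superoxide dismutase of the matrix. Irg1, now named Acod1, makes itaconate, an inhibitor of succinate dehydrogenase. It had no count after saline, 559 and 660 after LPS, and 227 and 120 after LGK974 and LPS. Against a floor of 3 counts over the control group its level was at least 571-fold higher in the endotoxemic group and at least 108-fold higher in the LGK974 group, and it was lower by 2.38 on the log2 scale after LGK974 and LPS than after LPS alone (adjusted p = 0.0113). Pdk2, a kinase that inhibits pyruvate dehydrogenase, fell by 5.25 from 85.0 and 83.1 CPM to 1.09 and 3.30 (adjusted p = 1.58e-05) and was higher by 1.78 after LGK974 and LPS than after LPS alone (adjusted p = 0.0365). Pdk1 fell by 0.80 and Pdk3 rose by 2.57 (adjusted p = 0.0166 and 0.00765). Sod2 rose from 253 and 261 to 1160 and 1152 CPM, by 2.17 (adjusted p = 4.83e-05). The rows named Nos2 and Hif1a stood out of chromosomal order and are not read here. No row matched a mitochondrially encoded subunit, so those subunits were not analysed here.

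The same lists in the LGK974 group against the control group gave the following, where 17.7% of all rows tested were lower and 16.4% higher. Of the electron carriers, 2 of 5 were lower, Etfdh by -0.99 and Etfa by -0.89 on the log2 scale. Of the further assembly factors, 5 of 42 were lower (11.9%) and 1 was higher (2.38%). The largest falls were those of Sco2 at -1.86, of Atpif1, the inhibitor of the ATP synthase, at -0.95, and of Uqcc3 at -0.92, and Foxred1 rose by 0.87. In coenzyme Q synthesis 3 of 12 were lower and 1 was higher, with Adck3 at -4.75, Coq10a at -1.26, Coq9 at -0.94 and Adck4 at 3.01. Of the regulators, 4 of 14 were lower and 1 was higher. Ppargc1b and Ppargc1a were at -3.81 and -2.24, Esrrg had 0 and 2 counts after LGK974 and LPS, and Pprc1 was at 1.49. Among the genes that slow respiration, Pdk2 and Pdk1 were lower at -3.47 and -1.37, and Pdk4 and Pdk3 were higher at 3.09 and 2.35. The Pdk4 libraries lay far apart, with 110 and 23 counts after LGK974 and LPS and 5 and 10 after saline. Sod2 rose by 2.01.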

How the data were processed

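Liver RNA of 3 groups was sequenced with a 3′-end kit. The authors deposited raw read counts per gene symbol, as whole numbers without normalization, in 8 libraries. Their processing notes name Bowtie2, edgeR and mm10, and versions and the counting program are not given in the sources used here. The order of the rows was checked against RefSeq gene positions (GRCm38.p6, limit 2 Mb).

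Identical libraries were counted once. Counts of the 6 distinct libraries were filtered with filterByExpr, normalized by TMM and fitted with 1 quasi-likelihood model (R 4.3.3, edgeR 4.0.16) over all rows, with Benjamini-Hochberg adjustment at 0.05 over 12701 rows. SEs were derived from the F statistic. Total counts of 9142116 to 15222439 set 3 counts at 0.196 to 0.327 CPM. The scripts were tested on simulated data. Alternatives were other normalizations and filters, DESeq2 1.42.0, a replicate block, row-order corrections and leaving out each library. Members, lists and tests were chosen with earlier results of these data known. Named genes were the core subunits, isoforms and paralogues, the highest-level member of each complex, and the 3 largest rises and falls past the threshold in each complex or list and comparison. A row named outside this rule is stated as such, and the values of some genes the rule names are not reported here. The markers Tf and Ly6g matched no row.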

Additional observations from a re-analysis of the deposited data

How the results depend on the processing

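The median log2 fold change of the members kept its sign in every setting, and leaving out 1 library moved it between -0.55 and -0.45 for endotoxemic against control, 0.15 and 0.20 for LGK974 against endotoxemic, and -0.38 and -0.32 for LGK974 against control. Counts of calls depended on the libraries. Members lower in the endotoxemic group ranged from 9 to 55 when 1 library was left out, members higher after LGK974 and LPS than after LPS alone from 0 to 4, and members higher and lower after LGK974 and LPS than after saline from 0 to 2 and from 6 to 29. In these fits a lone library is assumed to vary like the other groups. For endotoxemic against control, the share of all rows called lower moved in the same direction as that of the members in each fit. Without either endotoxemic library, or without control library 1, the share of members called lower was below that of all rows tested. Counting the identical libraries as separate samples gave 68 lower members in the endotoxemic group, 19 higher after LGK974 and LPS than after LPS alone, and 2 higher and 36 lower after LGK974 and LPS than after saline. Over all rows tested, 60.8%, 26% and 45.9% were called in either direction in these comparisons, against 43.4%, 5.62% and 34.1% with each pair counted once. With no filter on low counts 4 members were higher after LGK974 and LPS than after LPS alone, and with only the endotoxemic and LGK974 libraries in the fit 0 were (edgeR). Of all rows, 9.88% and 2.26% were called in either direction in those fits. In at least 1 setting other than leaving out a library, 7 of 36 calls were lost for endotoxemic against control, both for LGK974 against endotoxemic, and 2 of 22 for LGK974 against control.

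Without the Rn45s row in the totals the members held a mean of 2.18%, 1.55% and 1.67% of counts in the control, endotoxemic and LGK974 groups. Sdhd lay at 0.06 in LGK974 against control, from -2.17 without LGK974 library 1 (adjusted p = 0.013) to 0.91 without LGK974 library 2, and with no filter it passed the threshold for endotoxemic against control at -1.55 (adjusted p = 2.3e-08) and for LGK974 against endotoxemic at 1.66 (adjusted p = 1.71e-08), and the cause was not tested. Leaving out 1 library gave Sdhd values from -3.20 to -0.82 for endotoxemic against control and from -0.59 to 3.30 for LGK974 against endotoxemic. The S100a8 row, out of chromosomal order, turned from -2.03 to 6.93 in LGK974 against control when symbols were reassigned by position. That setting moved only the counts of the LPS-injected groups and left the control counts under their deposited symbols. Shared replicate numbers were not shown to pair the libraries (correlations of deviations 0.214 for control and endotoxemic, 0.064 for endotoxemic and LGK974 and -0.018 for control and LGK974 across rows, and 0.402, 0.52 and -0.043 across the members), and a replicate block gave 37 lower members in the endotoxemic group, 2 higher after LGK974 and LPS than after LPS alone, and 1 higher and 23 lower against control. With the block Sdhd passed in endotoxemic against control, at -2.24 (adjusted p = 0.0325). A setting with no TMM factor, chosen after seeing the data, gave 36, 2, 1 and 21. With 2 libraries a group, the spread between libraries sets the precision of these values.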

Other observations

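Sdhd, the complex II anchor whose replicates lay far apart, was 1 of 7 rows among 7113 with a mean of at least 10 CPM that differed at least 4-fold between the replicates of both the endotoxemic and the LGK974 group, with the same replicate number higher in both. The other 6, chosen after their values were seen, were Snhg6, Bmp2, F8, Gm10768, Nr0b2 and Fam13a. Counts of Sdhd were 536 and 830 after saline, 269 and 51 after LPS, and 1291 and 170 after LGK974 and LPS. Among the members tested, the median difference between replicates was 0.13 on the log2 scale after saline, 0.18 after LPS and 0.14 after LGK974 and LPS. The gene lies on chromosome 9 (RefSeq, GRCm38.p6), at 50596340 to 50603849, and its row stood in chromosomal order.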
